A study of Caenorhabditis elegans with 2 samples.

Results

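The heterochronic genes examined here were lin-28, lin-46, lin-66, kin-20, lep-2, lin-41, lin-42, hbl-1, daf-12 and dre-1, which are 10 of the 19973 protein-coding genes annotated on the nuclear chromosomes of Caenorhabditis elegans. They were taken by name from the Ensembl annotation of WBcel235, and all 10 names matched a gene. Binding of the zinc finger protein SOMI-1 was mapped by chromatin immunoprecipitation and sequencing (ChIP-seq) in 1 group of 2 biological replicates. The worms were of strain OP752, so both replicates carried the mutation unc-119(tm4063) and the transgene wgIs752, which holds the tagged gene somi-1::TY1::EGFP::3xFLAG and the rescuing copy unc-119(+). They were whole young adults of both sexes at an age of 65.5 hours, synchronised as starved first-stage larvae after bleaching. An antibody against GFP was used on sonicated chromatin. Both replicates came from the same transgenic line, a line without the tag was not analysed here, and the labels do not state in which tissues the transgene is made. Because whole animals were used, few nuclei with much SOMI-1 at a site cannot be told apart from many nuclei with little.

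Heterochronic genes set the order in which larval cells, above all those of the epidermis, take up the fates of successive stages. Small RNAs of the lin-4 and let-7 families switch off early-acting regulators such as lin-14, lin-28 and hbl-1, and later lin-41, and mutations make cells skip or repeat stage-specific divisions. SOMI-1 takes its name from suppression of the effects of overexpressed mir-84, a let-7 family microRNA, which links it to the same pathway.

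Binding was read from 4 peak lists deposited by the authors. One list was called on each replicate (29600 and 26067 peaks for replicates 1 and 2), and a joint list on both together (26266 peaks). The thresholded list held 1667 of the joint peaks and came from the authors' step for reproducibility between replicates, the irreproducible discovery rate (IDR). The summit is the position of the maximum given for each peak, and the signal value is the authors' own strength score, which has no stated unit. Ranks run from 1 for the highest signal within a list. The thresholded peaks were the 1667 strongest of the joint list, with a lowest signal of 91 and a median of 125. They thus amount to a cut by joint signal, and 1647 of them had their summit in a peak of both replicates. The read depth behind these lists is not given in the sources used here.

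Thresholded SOMI-1 summits stood at 6 of the 10 heterochronic genes and were absent from the other 4. The promoter windows of lin-46, lin-66, kin-20 and lep-2 held 5 summits in all, where a window reaches from 1000 bp upstream to 200 bp downstream of any annotated transcript 5′ end. Thus 4 of 10 genes had a summit in the window, against 4.34% of all protein-coding genes. Inside the gene, kin-20 had 4 summits and daf-12 had 2, so that 2 of 10 genes were marked there, against 2.33% of all. Adding hbl-1, whose summit lay farther upstream, 6 of 10 genes had a thresholded summit in the gene or within 5000 bp of it, against 16.4% of all. The binding of lin-46, lin-66, kin-20 and lep-2 was known from these same lists when the genes were chosen, so these counts are a description and were not tested. Longer genes leave more room for a summit, and these genes had a median span of 6802 bp against 2027 bp for all.

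These 11 summits were of ordinary strength for the thresholded list. Their signals ran from 93.6 to 179 with a median of 124, close to the 125 of all thresholded peaks, and their ranks ran from 344 to 1577 of 1667. All 11 lay in the replicate 1 list and 10 of them in the replicate 2 list as well (90.9%), against 98.8% of all thresholded summits in both. The exception was the summit at lep-2. At the shared places the replicates' own summits stood within 44 bp of the joint summit in replicate 1 and within 49 bp in replicate 2. By place, 5 summits were upstream of the gene, 5 in introns and 1 in a coding exon. By chromosome, 7 of the 11 were on X, which held 25% of all thresholded summits.

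**Figure D1:**
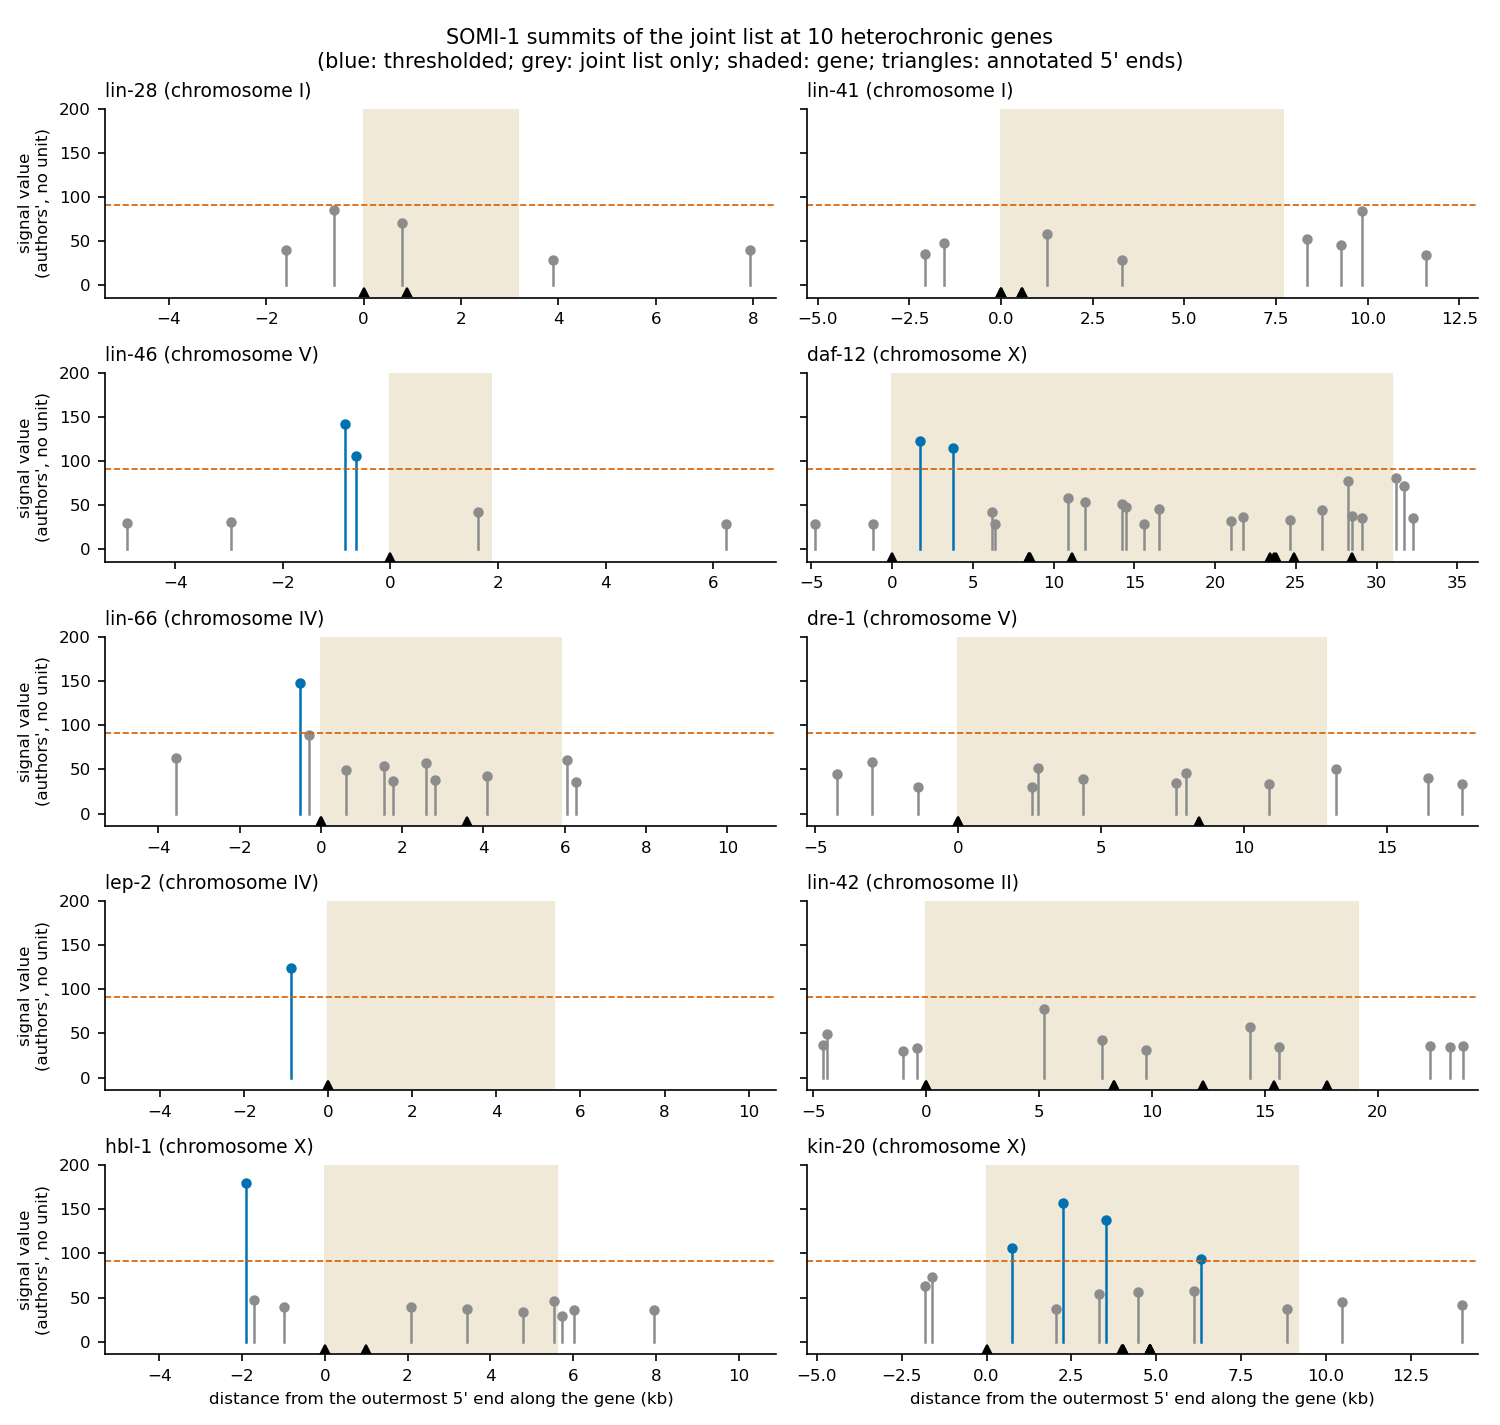
Each panel shows 1 gene, with the distance from its outermost annotated 5′ end in kb on the horizontal axis and the authors' signal value of every joint-list summit within 5000 bp of the gene on the vertical axis. Blue stems are thresholded summits, grey stems are summits of the joint list only, the dashed line is the lowest thresholded signal of 91, the shading is the gene and triangles are annotated 5′ ends. Blue stems stand upstream of lin-46, lin-66, lep-2 and hbl-1 and inside kin-20 and daf-12, and lin-28, lin-41, lin-42 and dre-1 have none.

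Sequences under some of the summits of these 6 genes are shown, and they differ from each other. Whether these differences affect the signal values was not tested. Each is read on the strand of its gene from the ce11 assembly (the RefSeq copy of WBcel235) and reaches 50 bp to either side of the summit, except that of lin-46, which is shortened to leave out the transcribed part of a neighbouring gene. Capitals mark the word GACGCA in lin-46 (chrV:12967983-12968068, plus strand) and lin-66 (chrIV:13887520-13887620, plus strand), every other copy of a tandem repeat in lep-2 (chrIV:991357-991457, plus strand), the palindrome TGACGTCA in the second summit of daf-12 (chrX:10639610-10639710, plus strand) and a run of alternating T and G in the strongest summit of kin-20 (chrX:15275475-15275575, minus strand). Nothing is marked in hbl-1 (chrX:5820185-5820285, plus strand) or in the kin-20 summit of the promoter window (chrX:15274211-15274311, minus strand). Left out are the weaker summit of lin-46, the stronger summit of daf-12 and the kin-20 summits with signals of 106 and 93.6. None of the marked features was found in the sequences left out.
lin-46: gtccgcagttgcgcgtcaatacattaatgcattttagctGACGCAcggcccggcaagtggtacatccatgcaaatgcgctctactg
lin-66: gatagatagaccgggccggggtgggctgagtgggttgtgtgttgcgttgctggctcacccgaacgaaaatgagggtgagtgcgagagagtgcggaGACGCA
lep-2: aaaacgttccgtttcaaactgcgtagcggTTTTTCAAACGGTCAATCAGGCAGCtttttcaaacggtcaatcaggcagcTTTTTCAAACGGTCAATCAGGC
hbl-1: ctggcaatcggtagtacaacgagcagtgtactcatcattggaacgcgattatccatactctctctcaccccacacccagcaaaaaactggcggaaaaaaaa
daf-12: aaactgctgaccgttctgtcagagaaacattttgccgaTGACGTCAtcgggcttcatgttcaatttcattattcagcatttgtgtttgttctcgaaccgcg
kin-20 strongest: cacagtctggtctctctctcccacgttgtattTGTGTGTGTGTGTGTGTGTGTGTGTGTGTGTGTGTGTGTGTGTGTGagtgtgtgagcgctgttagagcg
kin-20 window: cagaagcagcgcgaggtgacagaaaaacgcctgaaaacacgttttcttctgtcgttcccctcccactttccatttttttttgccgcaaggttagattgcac

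The word GACGCA had been singled out in earlier work on these lists as common under summits. Searched on both strands within 50 bp to either side of each summit, it was found in 2 of the 11 windows, those of lin-46 and lin-66, a share of 18.2%. It was held by 12.4% of all 1667 thresholded windows and by 1.86% of windows of the same length 300 bp to either side of them. Among all promoters, taken as 250 bp before to 50 bp after the outermost 5′ end, 8.8% held it. These promoter stretches are longer than the summit windows, so their share is not directly comparable. With windows of 100 bp to either side of the summit, still shorter than the promoter stretches, the share of all thresholded windows was 19.6%. In lin-46 the centre of the word lay 6.5 bp from the summit, and in lin-66 47.5 bp. The other 9 windows did not hold these letters, so that the heterochronic summits differed in this feature. Their GC content ran from 43.6% to 64.4% with a median of 47.5%, and the median of all thresholded windows was 46.5%.

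The genes around lin-28 act on the switch from second-stage to third-stage fates. lin-28 encodes an RNA-binding protein that blocks the maturation of let-7, lin-46 encodes a gephyrin-like protein that acts downstream of lin-28 and opposes hbl-1, and lin-66 and lep-2 both lower lin-28 activity, lep-2 as a member of the makorin family. In this set lin-46, lin-66 and lep-2 had thresholded summits between 509 and 876 bp upstream of the gene, and lin-28 itself did not.

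Upstream of lin-46 (WBGene00003031, chromosome V, 12968855 to 12970730, plus strand) stood a pair of overlapping peaks. The stronger summit, 837 bp upstream, had a joint signal of 142 (rank 619), with 71.3 in replicate 1 and 68.4 in replicate 2. The weaker summit, 637 bp upstream, had a joint signal of 106 (rank 1221), with 52 in replicate 1 and 55.6 in replicate 2. In both replicates the summit farther from lin-46 was the higher one. The summits were 200 bp apart and the peaks shared 220 bp. The region lies between genes that run away from each other. The 5′ end of R186.8, on the minus strand, was only 36 bp from the stronger summit, which also lay in the window of R186.3, so the peak was nearer to R186.8 than to lin-46. Which of these genes the binding concerns was not tested.

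The summit of lin-66 (WBGene00001562, chromosome IV, 13888079 to 13893986, plus strand) lay 509 bp upstream, in no other gene's promoter window. Its signal was 148 (rank 549) in the joint list, 70.6 in replicate 1 and 79.4 in replicate 2. A second joint-list summit, 290 bp upstream, missed the thresholded list narrowly with a signal of 89.2 (rank 1744) and 40.6 in each replicate. The gene itself was dense in weaker summits, with 6 of the joint list over 5908 bp. These 6 summits had signals of at most 57.7, well under the threshold. Per kb of gene this was 1.02 summits, and 34 of the other 3232 genes of at least 5000 bp (1.05%) had as many or more. Within 5000 bp there were 11 joint summits, of which 8 lay in a peak of both replicates. Those with signals of 57.7 and 38.5, both inside the gene, had overlapping peaks and lay in the same replicate 2 peak.

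The peak upstream of lep-2 (WBGene00002278, chromosome IV, 992283 to 997644, plus strand) stood alone, and the replicates differed there. Its summit, 876 bp upstream and also in the window of the divergent gene egrh-2, had a joint signal of 124 (rank 840). Replicate 1 had a signal of 75.4 at this place (rank 557). Replicate 2 had no peak over it, and its nearest summit was 7965 bp away. No other joint-list summit lay within 5000 bp of lep-2 and none inside it, which set it apart from the other 9 genes, each with 5 or more summits within that distance. The sequence at the summit is a tandem repeat with a unit of 25 bp, which ran from 991386 to 991482 for 97 bp or 3.88 copies. The unit occurred 3 times in the nuclear genome, each time within this stretch. Exact repeats of at least 40 bp with a unit of 10 to 50 bp were present in 10 of the 1667 thresholded windows (0.6%), a limit set after the sequence was seen. Among the 20 thresholded summits that were not in a peak of both replicates, 1 window held such a repeat, that of lep-2. The part of the repeat in the difference between replicates was not tested.

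lin-28 (WBGene00003014, chromosome I, 8407630 to 8410804, minus strand) came close to the threshold in its promoter window without passing it. The summit 611 bp upstream of its outermost 5′ end had a joint signal of 85.2 (rank 1938), with 45.7 in replicate 1 (rank 1920) and 38.5 in replicate 2 (rank 3051). A second summit in its first intron, 104 bp upstream of the 5′ end of the shorter transcript, had a joint signal of 71.1 (rank 2874). Here the replicates differed, with 28.8 in replicate 1 (rank 7242) and 51.7 in replicate 2 (rank 1488). The nearest thresholded summit was 16111 bp away. Of 5 joint summits within 5000 bp of the gene, 3 lay in a peak of both replicates.

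hbl-1 and lin-41 encode regulators that the let-7 family microRNAs switch off, hbl-1 a Hunchback-like zinc finger protein of the early stages and lin-41 a TRIM-NHL RNA-binding protein that delays adult fates. They differed in these lists. hbl-1 (WBGene00001824, chromosome X, 5822142 to 5827755, plus strand) had the strongest summit of all 10 genes, with a joint signal of 179 (rank 344), 82.3 in replicate 1 (rank 428) and 96.6 in replicate 2 (rank 316). It lay 1907 bp upstream, outside the promoter window, and hbl-1 had the nearest protein-coding 5′ end. The window itself held only a weak joint summit 987 bp upstream, with a signal of 38.9 (rank 13562), present in replicate 2 (25.2) and not in replicate 1. The 4 joint summits inside hbl-1 had signals of at most 45.7, and the other upstream summits at most 47.65. The strong signal near hbl-1 was thus that of a single peak.

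lin-41 (WBGene00003026, chromosome I, 9334800 to 9342496, minus strand) was the only one of the 10 genes with no summit of any of the 4 lists in its promoter window. Its strongest joint summit lay 2149 bp beyond the 3′ end, with a signal of 84.5 (rank 1958), 55.4 in replicate 1 (rank 1170) and 31.3 in replicate 2 (rank 5414). Inside the gene the strongest of 2 joint summits was in a coding exon, with a signal of 57.8 (rank 4778), 22.6 in replicate 1 and 41.4 in replicate 2. The nearest thresholded summit was 27131 bp from the gene.

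daf-12 and dre-1 tie developmental timing to hormone signalling and to protein turnover. daf-12 encodes a nuclear hormone receptor that responds to the steroid dafachronic acid and acts on let-7 family microRNA genes, and dre-1 encodes an F-box protein that marks other regulators for degradation. In daf-12 (WBGene00000908, chromosome X, 10635908 to 10666875, plus strand) the thresholded summits stood in the first intron, of 8353 bp, of the transcript that starts farthest upstream, F11A1.3e.3, and of none of the other 9 transcripts. The first, 1749 bp from that 5′ end, had a joint signal of 123 (rank 858), with 62 in replicate 1 and 60.8 in replicate 2. The other, 2003 bp farther in, had a joint signal of 115 (rank 994), with 58.7 in replicate 1 and 56.9 in replicate 2. Within the replicates' own lists these were ranks 926 and 1028 for the first and 1028 and 1184 for the other.

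At the second of these summits the palindrome TGACGTCA, the consensus cAMP response element bound by CREB and ATF family factors, was centred at -8.5 bp from the summit. It was found in 15 of the 1667 thresholded windows (0.9%) and in 0.54% of the windows 300 bp to either side, and it was picked after the sequence was seen. daf-12 also had the most joint summits inside the gene, 17 over 30968 bp, and was the longest of the 10. At 0.549 per kb it ranked 105 among the 998 genes of at least 10000 bp, next to H18N23.2, chd-7 and osgn-1, with 0.551, 0.551 and 0.552 per kb. In its promoter windows the strongest of 4 joint summits lay 235 bp upstream of the innermost 5′ end, with a joint signal of 77.9 (rank 2317). It ranked far higher in the list of replicate 1 (50.5, rank 1486) than in that of replicate 2 (23.4, rank 12057).

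dre-1 (WBGene00001089, chromosome V, 6533614 to 6546500, minus strand) had the weakest binding by its strongest summit. That summit, 3007 bp upstream and 59 bp from the 5′ end of K04A8.20, had a joint signal of 58.2 (rank 4681), with 28.4 in replicate 1 and 27.1 in replicate 2. The strongest summit inside the gene, in its first intron, had a joint signal of 51.7 (rank 6355) and was present in replicate 1 (34.2) and not in replicate 2. The strongest in its promoter windows (45.8, rank 8965) was present in replicate 2 (28.3) and not in replicate 1. Only 4 of its 12 joint summits lay in a peak of both replicates, and the nearest thresholded summit was 13266 bp from the gene.

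lin-42 and kin-20 encode the worm relatives of the circadian clock proteins Period and casein kinase 1 (Doubletime), and both act in larval timing and molting. Their binding was unlike. kin-20 (WBGene00002203, chromosome X, 15268602 to 15277764, minus strand) had 4 thresholded summits, the most of the 10 genes. lin-42 (WBGene00018572, chromosome II, 1233236 to 1252359, minus strand) spans 19124 bp, more than kin-20 with 9163 bp, and had none.

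In kin-20, 3 summits lay in the first intron, of 4747 bp, of the transcript that starts farthest upstream, F46F2.2g.1, and of none of the other 7 transcripts. The strongest, 2239 bp inside that 5′ end, had a joint signal of 157 (rank 486), with 65.8 in replicate 1 and 92.3 in replicate 2. The next, 3503 bp inside, had a joint signal of 137 (rank 670), with 77.3 in replicate 1 and 54.5 in replicate 2. The replicates therefore put these summits in opposite order. The second is the one that counts for the promoter window. It lay 472 bp upstream of the nearest internal 5′ end, that of the shorter transcript F46F2.2a.1. The third, 750 bp inside, had a joint signal of 106 (rank 1214), with 57.6 in replicate 1 and 51.1 in replicate 2. The fourth lay in a coding exon shared by all 8 transcripts and was near the threshold, with a joint signal of 93.6 (rank 1577), 51.1 in replicate 1 and 41.9 in replicate 2. These summits were 1264 to 2817 bp apart, so they were separate peaks.

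The strongest kin-20 summit sat on 46 bp of alternating T and G. Runs of GT or CA of at least 40 bp were present in 4 of the 1667 thresholded windows (0.24%), again a limit set after the sequence was seen. Counting its 4 thresholded summits, kin-20 had 9 summits of the joint list inside the gene, or 0.982 per kb. This density was reached by 50 of the other 3232 genes of at least 5000 bp (1.55%). Some of the weaker peaks overlapped a thresholded peak. Within 5000 bp of the gene 11 of 13 joint summits lay in a peak of both replicates, the highest share among the 10 genes. Of these, 1 with a joint signal of 36.8 lay in the same replicate peaks as the strongest summit.

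The strongest summit of lin-42 lay in its long first intron of 8173 bp, 3106 bp upstream of an internal 5′ end, with a joint signal of 78.2 (rank 2301), 43.3 in replicate 1 (rank 2219) and 40.5 in replicate 2 (rank 2666). The replicates gave it a like rank below the threshold. Another summit in an intron, with a joint signal of 57.4 (rank 4845), was stronger in replicate 1 (54, rank 1272) and had no peak in replicate 2. In its promoter windows the stronger of 2 joint summits had a signal of 43.1 (rank 10448) and was present in replicate 1 (32.4) and not in replicate 2. Of 12 joint summits within 5000 bp, 4 lay in a peak of both replicates. The nearest thresholded summit was 68278 bp from the gene, the farthest among the 10 genes.

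**Figure D2:**
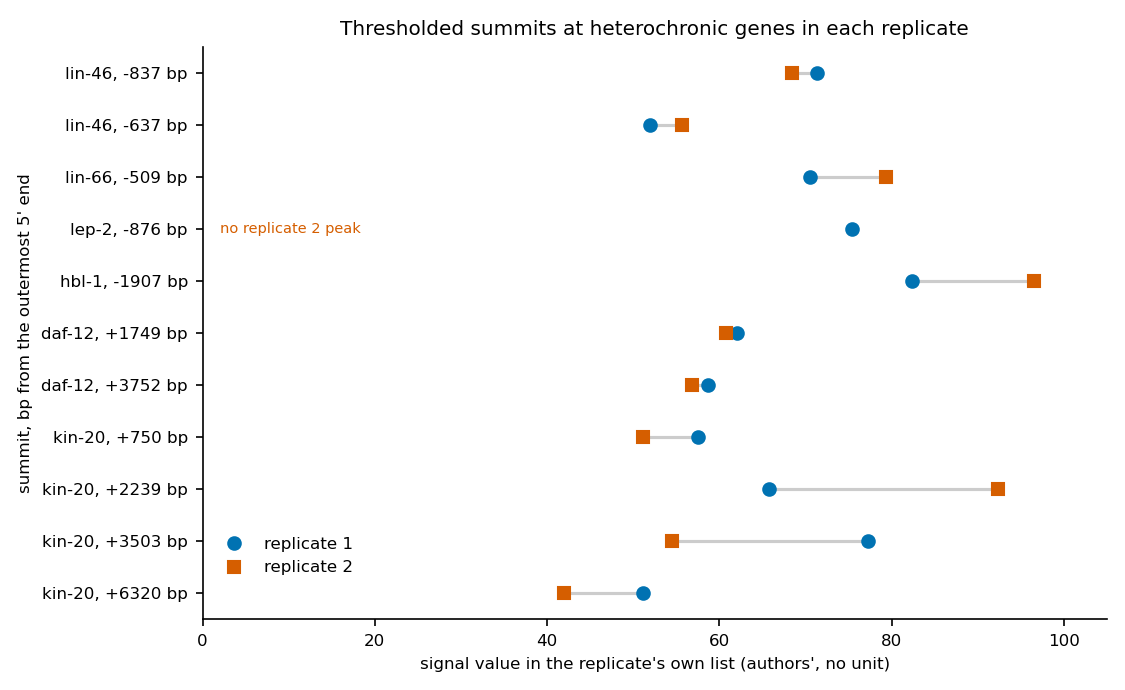
The horizontal axis is the authors' signal value in each replicate's own list, and each row is 1 of the 11 thresholded summits with its distance from the outermost 5′ end of the gene in bp. Circles are replicate 1 and squares replicate 2; the summits of kin-20 at 2239 and 3503 bp stand in opposite order in the replicates, hbl-1 is the highest in each, and lep-2 has a value of 75.4 in replicate 1 and no peak in replicate 2.

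The thresholded summits in introns numbered 5, and 1 of them is the promoter-window summit of kin-20. As the binding of kin-20 was known when the genes were chosen, the place of these summits is not independent of that choice. All 5, in kin-20 and daf-12, lay in the first intron of a single long transcript, upstream of the 5′ ends of the shorter transcripts. Over all protein-coding genes, 178 of 474 pairs of a gene and a thresholded summit in one of its introns (37.6%) had the summit in the first intron of every transcript that spans it. That share was not matched for intron length, and the first introns here are long, 4747 bp in kin-20 and 8353 bp in daf-12. The 5 summits belong to 2 genes, so they are not independent of each other.

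Annotated short non-coding RNA genes lay under the thresholded summits of hbl-1 and kin-20 and under none of those of lin-46, lin-66, lep-2 and daf-12. Of the 11 thresholded summits, 4 (36.4%) lay inside a gene of the class ncRNA, against 12.9% of all thresholded summits, and this class covers 1.09% of the nuclear genome. They were the summit of hbl-1, in F13D11.20 (194 bp, on the strand of hbl-1), and the 3 intronic summits of kin-20, in F46F2.12 (61 bp), F46F2.10 (113 bp) and F46F2.9 (76 bp). F46F2.12 and F46F2.10 are annotated on the strand opposite to kin-20, and F46F2.9 on the same strand. As 3 of the 4 belong to 1 gene, they are not independent of each other. In the joint list the strongest summit of lin-42 lay in F47F6.15 and the strongest inside dre-1 in K04A8.11. Over the joint summits of the 10 genes, 7 of 100 lay in such a gene, against 3.71% of all joint summits. The class was examined after the summits had been placed.

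In the unthresholded joint list nearly all of the 10 genes had summits, and so did many other genes. There 9 of 10 had a summit in the promoter window, against 35% of all protein-coding genes, 9 of 10 inside the gene, against 43%, and 10 of 10 within 5000 bp, against 89%. The last share is near the background and says little about these genes. The replicates' own lists gave 8 and 7 of 10 for the window, against 37.9% and 34.9%, 9 of 10 each for the gene body, against 48.1% and 43%, and 10 and 9 of 10 within 5000 bp, against 93% and 90.1%. The gene without a summit inside it was lep-2 in all 3 of these lists. Per kb of gene the median was 0.499 joint summits for the 10 genes and 0 for all protein-coding genes, whose median span is shorter. Of the 3 that span at least 10000 bp, lin-42 had 0.261, dre-1 0.466 and daf-12 0.549 joint summits per kb, against a median of 0.209 for all 998 genes of that length. Of the 100 joint summits within 5000 bp, 52 lay in a peak of both replicates (52%), against 43.8% of all joint summits, and a further 25 lay in a peak of replicate 1 only, 19 of replicate 2 only and 4 of neither. By place 38 of the 100 were in introns, 26 upstream and 23 downstream of the gene.

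**Figure D3:**
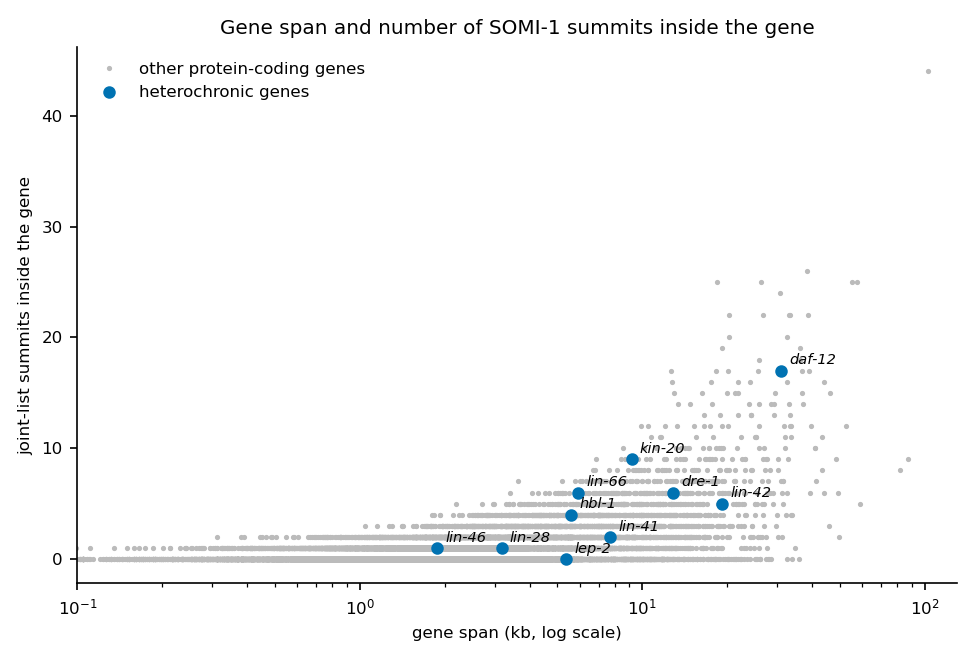
Gene span in kb on a log axis is plotted against the number of joint-list summits inside the gene, with the 10 heterochronic genes as labelled blue points and all other protein-coding genes in grey. Numbers rise with span among all genes; lin-66 (6 summits) and kin-20 (9) stand near the upper edge for their span, daf-12 (17) is the highest of the 10 and lep-2 has 0.

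The counts are also given by gene length and by chromosome, and an effect of either on them was not tested. Of the 3 genes of at least 10000 bp, lin-42, daf-12 and dre-1, only daf-12 had a thresholded summit inside it, against 13.7% of all genes of that length, or within 5000 bp, against 24.6%, and all 3 had joint summits inside, against 79.4%. All 3 genes on X, kin-20, hbl-1 and daf-12, had a thresholded summit within 5000 bp, against 23.6% of all X genes, and 2 of them inside the gene, against 3.63%. Of the 7 autosomal genes 3 had one within 5000 bp, against 15.2% of all autosomal genes, and 0 of the 7 had one inside the gene, against 2.13%.

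**Figure D4:**
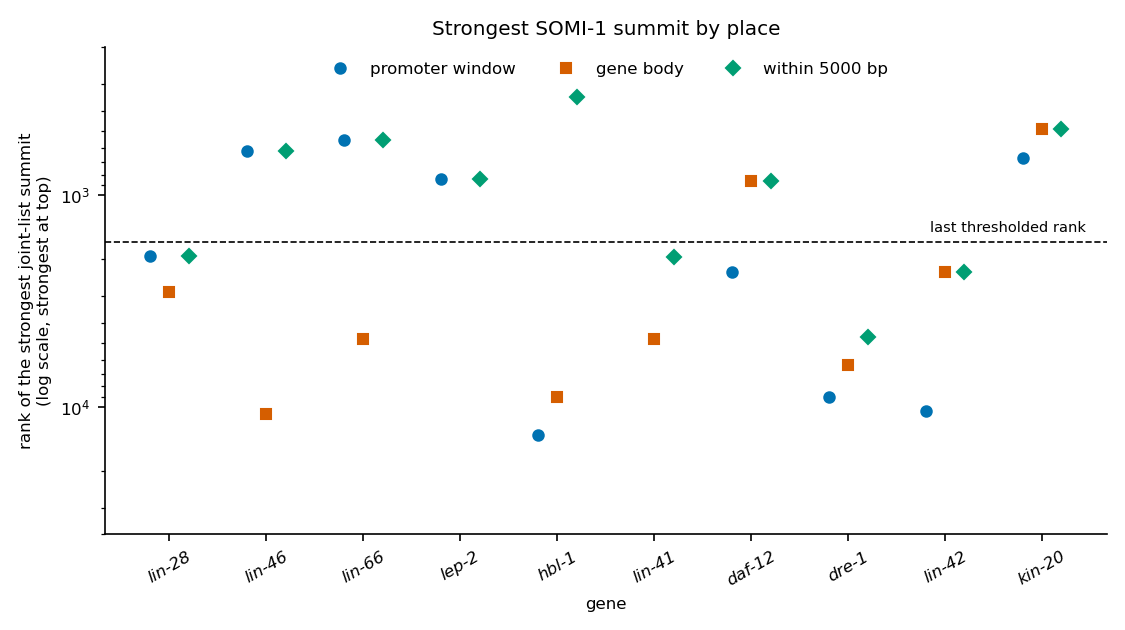
For each gene the rank of its strongest joint-list summit is plotted on a log axis with the strongest at the top, for the promoter window, the gene body and the stretch within 5000 bp. Points above the dashed line, at rank 1667, are thresholded: lin-46, lin-66 and lep-2 pass in the window, daf-12 in the gene body, kin-20 in both and hbl-1 only within 5000 bp, while lin-28 (rank 1938) and lin-41 (1958) lie just below.

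Other genes of the timing pathway were taken from a list of 20 that was drawn up with earlier results of these data known. Of these, 8 of 20 had a thresholded summit in the promoter window, 4 inside the gene and 9 within 5000 bp, beside the 4.34%, 2.33% and 16.4% of all genes given above. The strongest summits of the list were at nhl-2, a cofactor of microRNA silencing (signal 546), and puf-9, which encodes a Pumilio-family RNA-binding protein (445). ain-1, a partner of the Argonaute proteins, followed with 292, and lin-14 with 188. The strongest summits of din-1, a corepressor of DAF-12 (173), myrf-1 (165), somi-1 itself (143), nhr-85 (142) and sea-2 (126) were in the range of the 11 summits above. The transgene also holds somi-1, so signal from the transgene and from the gene's own place cannot be told apart here. somi-1 is among the 8 genes with a summit in the window and the 9 within 5000 bp. lin-14, an early-acting regulator, had 4 thresholded summits within 5000 bp as kin-20 did, with signals of 188, 148 and 109 inside the gene and 127 in the promoter window. No thresholded summit lay within 5000 bp of lin-29, mab-10, blmp-1, nhr-23, nhr-25, daf-9, bed-3, alg-1, alg-2, ain-2 or col-19.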

How the data were processed

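SOMI-1-eGFP ChIP-seq peaks from 2 biological replicates of whole young adults were used. According to the notes deposited beside them, the authors ran peak calling per replicate and on the replicates combined, against a single control, and an IDR step then gave the thresholded list, on ce11. No source used here names the software or the number of reads, and the control was not analysed here. Signal values, deposited by the authors, have no stated unit and were compared within a list only. Replicate values are given side by side. The −log10 q-value of each peak, deposited by the authors, was not used to select peaks. The summit offset was deposited by the authors, as a distance from the peak start, and positions are given 1-based.

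Genes came from Ensembl release 115 of WBcel235, the assembly that ce11 names, and sequences from the RefSeq copy. Python 3.11.15 was used. All 10 genes are named, with every thresholded summit in the promoter window, in the gene or within 5000 bp, and the strongest joint summit by place for the others. The replicate peak whose summit was nearest is given where several covered a summit. Placement was tested on simulated summits. The genes, the lists and the word GACGCA were chosen with earlier results of these data known. There was 1 group, so no test was made. Shares of all genes are given as a description and do not replace a test. Alternatives were other windows, distances and lists, each replicate alone, merged peaks and other word windows. Many worm transcripts are trans-spliced, so an annotated 5′ end need not be where transcription starts.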

Additional observations from a re-analysis of the deposited data

How the results depend on the processing

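The promoter count depended most on the width of the window and on the list. When the promoter window was narrowed to 500 bp before and 100 bp after a 5′ end, 1 of the 10 genes, kin-20, had a thresholded summit, against 4 in the main window, because the summits of lin-46, lin-66 and lep-2 lay at 509 bp or more. With the outermost 5′ end of each gene only, 3 genes had a summit in the window, and kin-20 was lost. Assigning each summit only to the gene with the nearest 5′ end also gave 3, and lin-46 was lost. In the unthresholded joint list the counts were 9 for the window, 9 for the gene body and 10 within 5000 bp. Keeping only thresholded peaks above the list's median signal left 1 gene with a summit inside it, kin-20. When only the 1667 strongest peaks of a single replicate were used, the promoter count ranged from 4 to 5, the gene-body count was 3 in either case, the count within 5000 bp ranged from 6 to 8, and the number of summits from 11 to 14. Replicate 2 alone lost lep-2 and gained lin-28. Replicate 1 alone gained daf-12 in the window, lin-42 inside the gene, and lin-41 and lin-42 within 5000 bp. Counting only summits in a peak of both replicates, chosen after the data were seen, gave 3, 2 and 5 genes for the 3 places. GACGCA was found within 25 bp of 1 summit, within 50 bp of 2 and within 100 bp of 3. With 2 replicates and no read depth, differences between summits of like signal could not be tested.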
